A study of Homo sapiens with 4 samples.

Results

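The EGFR family receptors, their ligands and the feedback inhibitor of the receptor were followed in TU-177 cells, an established human line of laryngeal squamous cell carcinoma (LSCC), after knockdown of SKA3. The 10 genes were chosen by name as the receptors EGFR, ERBB2 and ERBB3, the ligands AREG, EREG, TGFA, HBEGF, BTC and EPGN, and the inhibitor ERRFI1. All 10 were among the 28729 genes of the table. RNA was sequenced from 4 libraries, 2 of cells given a negative control lentivirus (NC) and 2 of cells given a lentivirus with an shRNA against SKA3 (SKA3-KD), and all were harvested after puromycin selection. The labels number the libraries of each group 1 and 2 and do not say whether these came from separate transductions or cultures, so the p-values measure only the spread between these samples, which may be technical. The hairpin sequence, and whether more than 1 hairpin was used, were not given for these samples.

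EGFR (ERBB1), ERBB2 (HER2) and ERBB3 (HER3) are receptor tyrosine kinases that signal as dimers through the RAS-MAPK, PI3K-AKT and STAT pathways. EGFR binds TGFA, AREG, EREG, HBEGF, BTC and EPGN, which are made as membrane-bound precursors and released by ADAM proteases. ERBB2 has no known ligand of its own, and ERBB3 binds neuregulins and has a weak kinase. ERRFI1 (MIG6) is induced by EGFR signaling and binds the kinase domain to shut it off. EGFR is commonly abundant in squamous carcinomas of the head and neck and is the target of cetuximab.

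The values were FPKM, the fragments per kilobase of a gene scaled to the fragments of the library. Library sizes were between 9015056 and 11966130. The label of the knockdown was borne out by the targeted gene, with SKA3 at 9.40 and 9.64 FPKM in NC 1 and NC 2 and at 3.77 and 4.12 FPKM in SKA3-KD 1 and 2 (log2 fold change of FPKM + 1 -1.09, adjusted p = 0.00806, limma). This call was lost without NC 1 (-1.11, adjusted p = 0.066) or without NC 2 (-1.07, adjusted p = 0.06, both limma). Of 8 squamous epithelial markers, KRT17 (29.4 to 49.1 FPKM) and EPCAM (2.73 to 2.95 FPKM) were above 1 FPKM, whereas the defining KRT5, KRT14 and KRT6A were at or near 0, TP63 and CDH1 stayed below 1 FPKM, and DSG3 was not analysed here. The labelled cell type is therefore backed by only 2 of its 7 measured markers, and EPCAM marks epithelium in general. Of 6 fibroblast markers, given further on, DCN, COL1A1 and PDGFRB were above 1 FPKM in every library. COL1A2, COL3A1 and LUM were below it.

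The sequences just upstream of 4 members are shown first as examples of members with more and with hardly any transcript. EGFR was the most abundant receptor and HBEGF the most abundant of the 6 ligands. AREG and EREG, which are neighbors on chromosome 4, were hardly detected. Each is the 150 bases before the RefSeq start (GRCh38.p14), written 5′ to 3′ on the strand of the gene, with GC boxes (GGGCGG or CCGCCC, either strand, the letters of the core SP1 site) and the TATA box (TATAAA, strand of the gene) in capitals. EGFR lies at chr7:55018867-55019016 on the plus strand, HBEGF at chr5:140346604-140346753 on the minus strand, AREG at chr4:74444986-74445135 and EREG at chr4:74364995-74365144, both on the plus strand.
EGFR: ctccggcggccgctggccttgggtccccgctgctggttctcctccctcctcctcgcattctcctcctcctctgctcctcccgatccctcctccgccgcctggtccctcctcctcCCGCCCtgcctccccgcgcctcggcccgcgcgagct
HBEGF: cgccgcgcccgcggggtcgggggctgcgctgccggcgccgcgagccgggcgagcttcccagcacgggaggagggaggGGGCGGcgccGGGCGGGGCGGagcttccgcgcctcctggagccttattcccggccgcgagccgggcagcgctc
AREG: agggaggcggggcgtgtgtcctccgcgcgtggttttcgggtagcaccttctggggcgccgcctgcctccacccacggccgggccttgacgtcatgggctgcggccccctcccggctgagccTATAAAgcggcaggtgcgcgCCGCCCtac
EREG: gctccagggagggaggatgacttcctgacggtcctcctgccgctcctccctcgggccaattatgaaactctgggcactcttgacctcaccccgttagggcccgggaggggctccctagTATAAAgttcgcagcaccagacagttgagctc

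Over the 250 bases before the start, the GC content was 73.6% for EGFR and 76.4% for HBEGF, compared with 65.2% for AREG, 58.0% for EREG and a median of 58.0% over 35116 RefSeq promoters. EGFR held 2 GC boxes, HBEGF held 5, AREG held 1 and EREG held none, and 42.6% of all promoters held at least 1. TATAAA was found in AREG, in EREG and in EPGN and in 6.8% of all promoters, and it was not found in HBEGF or at this EGFR start. These features did not follow the levels across all members. ERBB2, which was above 1 FPKM, had 65.6% GC and no GC box, and TGFA, which was below it, had an entry with 75.6% GC and 3 GC boxes. A second RefSeq entry of EGFR, which starts further downstream, held 2 TATAAA matches, no GC box and 38.8% GC. Promoter entries were matched for 9 of the 10 members, all except ERBB3. A match of letters is a description of the sequence and not a measured binding site.

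EGFR dominated the family. Per length of gene, it stood at 42.8 to 71.2 FPKM over the 4 libraries, followed by ERRFI1 (15.1 to 21.4 FPKM), ERBB2 (6.06 to 7.94 FPKM), HBEGF (2.22 to 3.60 FPKM) and ERBB3 (1.06 to 1.58 FPKM). No value of any of these 5 genes reached that of its neighbor in the order. EGFR made up 85.0% and 85.2% of the summed FPKM of the 3 receptors in NC 1 and NC 2, and 87.6% and 88.8% in SKA3-KD 1 and 2. HBEGF was the only one of the 6 ligands above 1 FPKM in any library and gave 79.4% and 83.1% of the summed ligand FPKM in the NC libraries and 88.2% and 87.5% in the SKA3-KD libraries. Thus, the receptor and ligand transcripts of TU-177 cells were mostly those of EGFR, with ERBB2 and ERBB3 far lower and HBEGF as the main one of the 6 ligands.

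**Figure D1:**
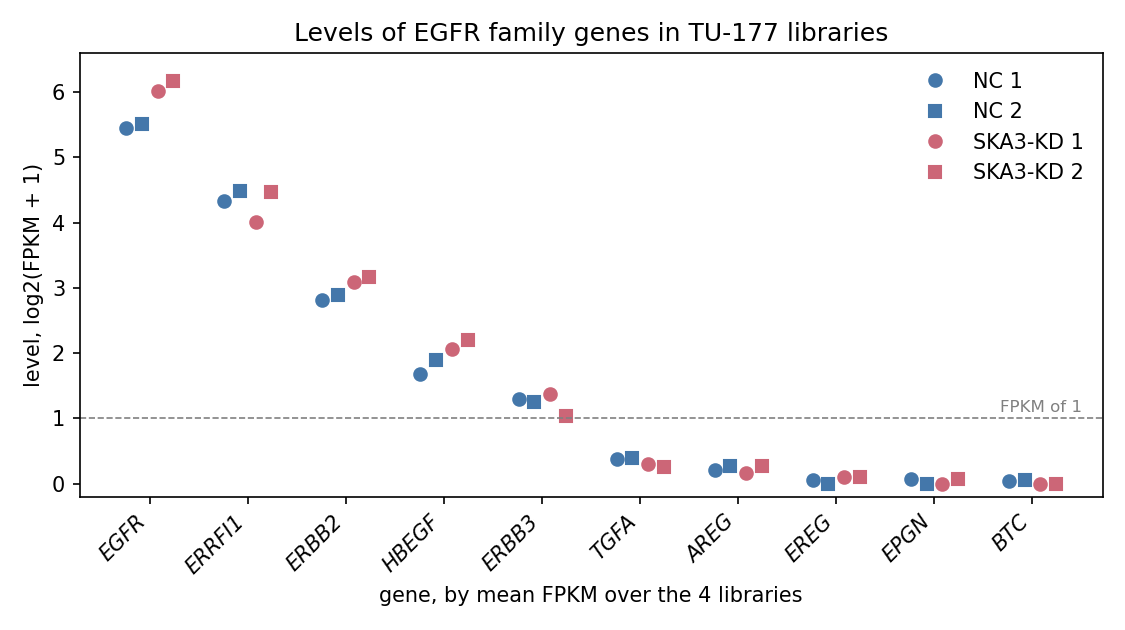
Level of each of the 10 genes as log2(FPKM + 1) on the vertical axis in each of the 4 libraries, with genes ordered by mean FPKM, NC in blue, SKA3-KD in red, circles for replicate 1 and squares for replicate 2. The first 5 genes lie above the dashed line at 1 FPKM in every library, and the other 5 lie below it. Among the first 5, the 2 SKA3-KD points of EGFR, ERBB2 and HBEGF lie above both NC points.

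SKA3-KD libraries held more EGFR transcript than NC libraries. Of the 10 members, 5 had a mean of at least 1 FPKM and were tested, and 1 of them, EGFR, was higher past the threshold of adjusted p 0.05 (limma, Benjamini-Hochberg over 12645 genes). Of all genes tested, 6.16% were called higher and 6.11% lower. No member was called lower (limma on log2 FPKM, with 0 also at an unadjusted p under 0.05 and 0 by limma voom on recovered reads). In 3 of the 5, EGFR, ERBB2 and HBEGF, both SKA3-KD values lay above both NC values, a pattern seen in 32.3% of all genes tested, and none of the 5 showed the opposite pattern, seen in 29.2%. Of the 5 members below the filter, TGFA and BTC had both SKA3-KD values below both NC values, and EREG had both above. These patterns rest on the few reads given further on, and the shares above cover only genes tested. The median log2 fold change of the 5 was 0.27, compared with 0.01 over all genes tested.

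EGFR (ENSG00000146648, chromosome 7, 55019021 to 55211628, plus strand, GRCh38) was measured at 42.8 and 44.7 FPKM in NC 1 and NC 2, compared with 64.1 and 71.2 FPKM in SKA3-KD 1 and SKA3-KD 2. The values rest on 6631, 5222, 8461 and 10889 reads in the same order. Both SKA3-KD libraries stood above both NC libraries, and the gap between the groups was wider than the difference within either. The mean rose from 43.7 ± 1.37 to 67.7 ± 5.02 FPKM (SD, n = 2 each), or 1.55-fold. The log2 fold change of FPKM + 1 was 0.62 (SE 0.07, 95% interval 0.43 to 0.80) with an adjusted p of 0.0152 in limma. The call was lost when all genes above 0 were tested (adjusted p = 0.0613) and when any 1 library was left out (adjusted p = 0.0813 without NC 1, 0.0672 without NC 2, 0.0566 without SKA3-KD 1 and 0.0684 without SKA3-KD 2, all limma), while the log2 fold change stayed between 0.54 and 0.69. In these bulk libraries, more EGFR-expressing cells and more EGFR transcript per cell cannot be told apart. The antisense transcript EGFR-AS1, which lies within the EGFR locus on the other strand, had 2, 5, 7 and 12 reads, and whether the counting used strand is not given in the sources used here.

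KRT17, a keratin and the most abundant squamous marker, was lower in the same SKA3-KD libraries (45.6 and 49.1 against 29.4 and 35.7 FPKM, log2 fold change -0.53, adjusted p = 0.0396, limma). The summed FPKM of the squamous markers was 49.0 and 53.1 in NC and 33.3 and 39.2 in SKA3-KD, most of it KRT17. EPCAM, an epithelial adhesion protein, did not pass (log2 fold change -0.04, adjusted p = 0.828, limma), and CDH1, the gene of E-cadherin, was at 0.149 and 0.288 FPKM in NC and at 0.447 and 0.344 FPKM in SKA3-KD. Of 6 fibroblast markers, DCN (decorin, a matrix proteoglycan) fell from 8.40 and 8.36 to 2.48 and 2.35 FPKM (log2 fold change -1.46, adjusted p = 0.0065, limma), COL1A2 and LUM were at or near 0, and PDGFRB, a receptor of PDGF, was at 2.88 and 2.46 against 3.19 and 4.13 FPKM (log2 fold change 0.34, adjusted p = 0.165, limma), so that the markers of this list did not share a direction. COL1A1 was at 3.22 and 3.99 against 2.71 and 2.66 FPKM (adjusted p = 0.14, limma), and COL3A1 at 0.797 and 0.765 against 0.476 and 0.361 FPKM. Like DCN, these 2 genes and LUM, the last on at most 6 reads per library, had both SKA3-KD values below both NC values. This pattern was seen in 29.2% of all genes tested, a share that does not cover COL3A1 and LUM, which were below the filter. By limma voom on recovered reads, PDGFRB was called higher and 3 fibroblast markers were called lower, against 1839 higher and 1700 lower of all 15521 genes. The summed fibroblast level was 15.4 and 15.8 in NC and 8.86 and 9.56 in SKA3-KD. The leukocyte markers summed to 0.798 to 1.38 FPKM with PTPRC at or near 0, and the endothelial markers summed to at most 0.0967 FPKM, with CD3E and PECAM1 not analysed here. The part of these shifts in the EGFR difference was not tested.

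ERBB2, the receptor without a ligand, was also higher in each SKA3-KD library than in each NC library, but did not pass the threshold. Its level was 6.06 and 6.41 FPKM in NC 1 and NC 2, compared with 7.48 and 7.94 FPKM in SKA3-KD 1 and SKA3-KD 2, from 749, 596, 786 and 967 reads. The groups did not overlap. The means were 6.24 ± 0.241 and 7.71 ± 0.327 FPKM (SD, n = 2 each), a ratio of 1.24. The log2 fold change of FPKM + 1 was 0.27 (SE 0.07, 95% interval 0.08 to 0.45) with an adjusted p of 0.077 in limma. On recovered reads, limma voom gave 0.31 with an adjusted p of 0.00847, so that ERBB2 was called in that test.

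ERBB3, the neuregulin receptor, showed no difference larger than the spread between replicates. It was measured at 1.47 and 1.37 FPKM in NC 1 and NC 2, compared with 1.58 and 1.06 FPKM in SKA3-KD 1 and SKA3-KD 2, on the basis of 107 to 152 reads. The 2 SKA3-KD libraries were the highest and the lowest of the 4, so the groups overlapped. The log2 fold change of FPKM + 1 was -0.07 (SE 0.17, 95% interval -0.50 to 0.36, adjusted p = 0.813, limma), an interval that still allows a change in either direction. The proportion of EGFR to ERBB2 transcript per length was 7.05 and 6.98 in NC 1 and 2 and 8.57 and 8.97 in SKA3-KD 1 and 2.

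**Figure D2:**
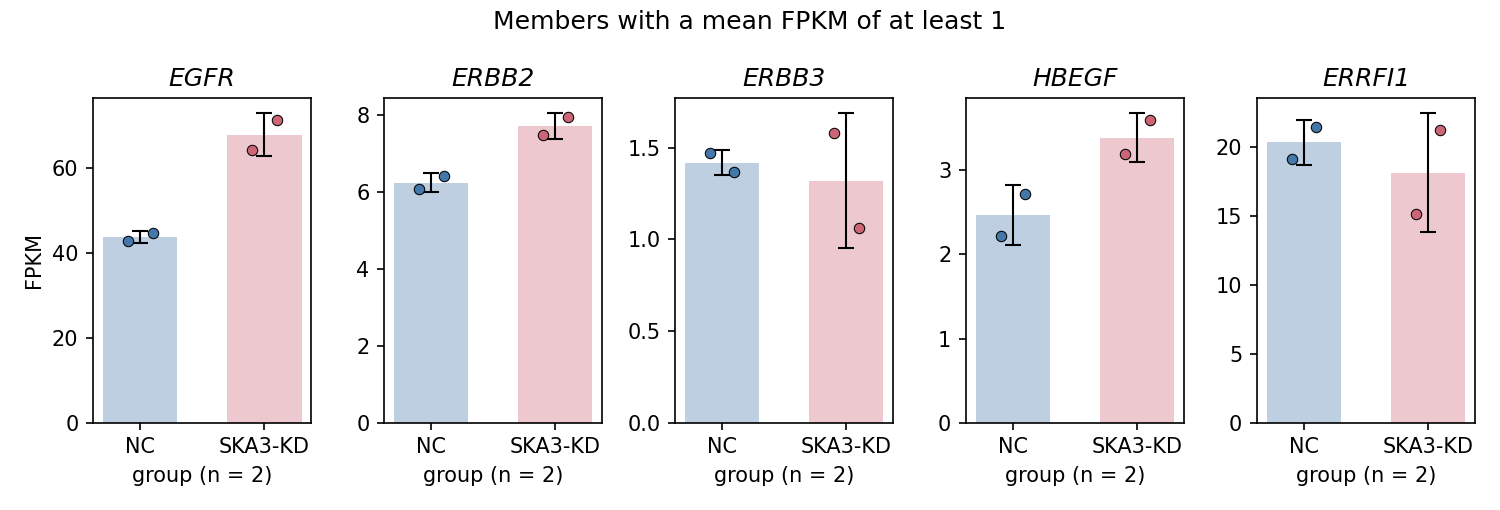
FPKM of the 5 members tested, each on its own vertical axis from 0, with bars for the group mean, error bars for the SD and points for the single libraries (n = 2 per group, replicate 1 on the left). In EGFR, ERBB2 and HBEGF the points of SKA3-KD lie above those of NC, whereas in ERBB3 and ERRFI1 the points of the groups overlap.

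HBEGF, the heparin-binding ligand of EGFR, had the most transcript of the 6 ligands. It stood at 2.22 and 2.72 FPKM in NC 1 and NC 2, compared with 3.19 and 3.60 FPKM in SKA3-KD 1 and SKA3-KD 2, from 80, 74, 98 and 128 reads. Both SKA3-KD values were above both NC values, although NC 1 and NC 2 lay as far apart as NC 2 and SKA3-KD 1. The means were 2.47 ± 0.357 and 3.39 ± 0.287 FPKM (SD, n = 2 each), a ratio of 1.38. The log2 fold change of FPKM + 1 was 0.34 (SE 0.12, 95% interval 0.04 to 0.65) and did not pass the threshold (adjusted p = 0.126, limma).

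The remaining 5 ligands were below 1 FPKM in every library and were not tested. TGFA, a classical autocrine ligand of carcinoma cells, had 18 and 14 reads across NC 1 and NC 2, compared with 12 and 11 across SKA3-KD 1 and SKA3-KD 2, a ratio of rates of 0.686 (exact 95% interval 0.384 to 1.21, covering counting error only). AREG, amphiregulin, had 3 reads in each NC library and 2 and 4 in the SKA3-KD libraries, a ratio of 0.955 (0.255 to 3.57). EREG, epiregulin, had 3 reads in NC 1, none in NC 2, and 4 and 5 across the SKA3-KD libraries, a ratio of 2.86 (0.715 to 16.5). None of these 3 differences was detectable at this depth, since each interval includes equal rates.

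BTC (betacellulin) had 1 read in each NC library and none in SKA3-KD, where a count of 0 allows up to 0.105 and 0.0903 FPKM in libraries 1 and 2. EPGN (epigen) had 1 read in NC 1 and 1 in SKA3-KD 2. In the order of levels, TGFA and AREG overlapped, as did EREG with EPGN and EPGN with BTC. The genes of EPGN, EREG, AREG and BTC lie together within 486 kb of chromosome 4 (74308473 to 74794686, GRCh38), and none of the 4 had more than 5 reads in any library. AREG has a near-identical second copy in the hg19 assembly named in the submitters' notes, so the assignment of its few reads is uncertain.

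ERRFI1, the feedback inhibitor, was the second most abundant member, and its level split the SKA3-KD libraries. It was measured at 19.1 and 21.4 FPKM in NC 1 and NC 2, compared with 15.1 and 21.2 FPKM in SKA3-KD 1 and SKA3-KD 2, from 958, 807, 643 and 1045 reads. SKA3-KD 1 lay below both NC libraries and SKA3-KD 2 between them. On the log2 scale of FPKM + 1, SKA3-KD 1 differed from the NC mean by -0.40 and SKA3-KD 2 by 0.06, and the log2 fold change was -0.17 (SE 0.16, 95% interval -0.59 to 0.25, adjusted p = 0.529, limma). EGFR stood at 2.24 and 2.09 times the FPKM of ERRFI1 in NC 1 and 2, and at 4.25 and 3.37 times in SKA3-KD 1 and 2.

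**Figure D3:**
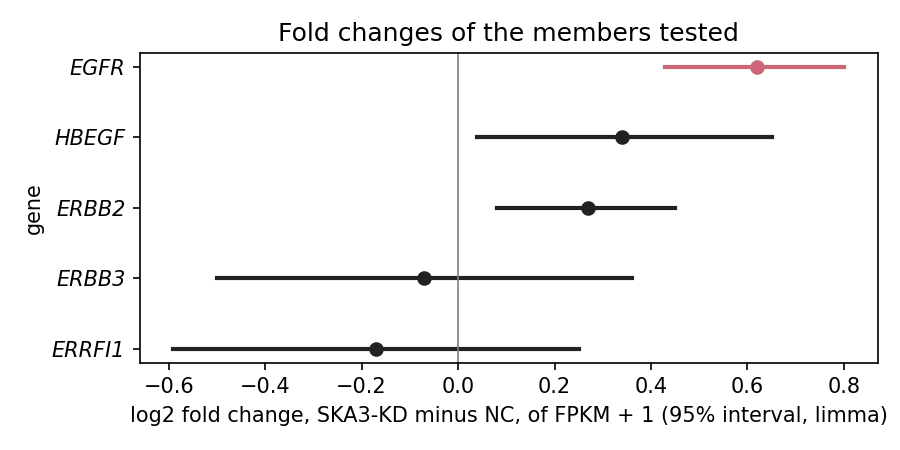
Log2 fold change of FPKM + 1, SKA3-KD minus NC, of the 5 members tested (points) with the 95% interval of limma (lines), with EGFR, the member past the threshold, in red. The interval of EGFR runs from 0.43 to 0.80, those of HBEGF (0.04 to 0.65) and ERBB2 (0.08 to 0.45) lie above 0 without the genes passing after adjustment over all genes, and those of ERBB3 and ERRFI1 cross 0.

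Outside the family list, ERBB4, EGF and NRG1 were low, and NRG4 was above HBEGF in both NC libraries. ERBB4, which binds neuregulins, had 10 and 14 reads across NC 1 and NC 2, compared with 18 and 21 across SKA3-KD 1 and SKA3-KD 2, a ratio of rates of 1.55 (exact 95% interval 0.91 to 2.70). EGF, the founding ligand of EGFR, had 6, 3, 3 and 5 reads in the same order. NRG1, a ligand of ERBB3 and ERBB4, stood at 0.884 and 1.23 FPKM in NC and 0.898 and 0.675 in SKA3-KD, a mean below 1 FPKM, so it was not tested. Its ratio of rates was 0.754 (exact 95% interval 0.595 to 0.953), an interval that covers counting error only and not the spread between libraries, and the groups overlapped. NRG4, a ligand of ERBB4, was at 4.52 and 3.44 FPKM in NC and 2.42 and 2.93 in SKA3-KD, and did not pass the threshold (log2 fold change -0.43, unadjusted p = 0.0297, adjusted p = 0.118, limma), although limma voom on recovered reads called it lower. NRG4 was thus at 2.04 and 1.26 times the FPKM of HBEGF in the NC libraries, and at 0.759 and 0.815 times in the SKA3-KD libraries.

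Downstream of and around the receptors, single genes were called in both directions, at about the share of all genes. Of 71 other genes of the pathway, 69 were in the table and 61 were tested, of which 4 were higher and 3 lower past the threshold (limma). These counts, 4 and 3 of 61, stand against 6.16% higher and 6.11% lower among all genes. In 24 of the 61 both SKA3-KD values lay above both NC values, and in 21 below, against 32.3% and 29.2% of all genes. The median log2 fold change of the 61 was 0.05. NRG3 and CBLC were not analysed here.

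In the PI3K-AKT arm, 2 of 10 tested genes were higher and 1 was lower, against 6.16% and 6.11% of all genes tested. MTOR, the kinase of both mTOR complexes, rose from 9.70 and 10.5 to 15.7 and 16.4 FPKM (log2 fold change of FPKM + 1 0.62, adjusted p = 0.0146, limma). PIK3CB, the p110β catalytic subunit of PI3K, fell from 9.60 and 9.04 to 5.49 and 5.82 FPKM (-0.63, adjusted p = 0.015, limma). In both of these genes the groups did not overlap, as in 32.3% (higher) and 29.2% (lower) of all genes tested. The regulatory subunits PIK3R1 and PIK3R2 were at most 0.0652 FPKM in any library. PIK3R3, another regulatory subunit, was at 3.43 and 3.77 FPKM in NC and 2.98 and 2.54 in SKA3-KD (log2 fold change -0.29, adjusted p = 0.14, limma).

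In the RAS-MAPK cascade, 0 of 13 tested genes were higher and 1 lower past the threshold (limma), against 6.16% and 6.11% of all genes. At an unadjusted p under 0.05, 2 were higher and 1 lower, with the same numbers by limma voom. Voom called 1839 genes higher and 1700 lower of 15521 over all genes, and the unadjusted share over all genes is not given here. NRAS, a RAS GTPase, was at 34.4 and 30.6 FPKM in NC and 42.9 and 40.5 in SKA3-KD and lay just outside the threshold (adjusted p = 0.0511, limma), as did HRAS (adjusted p = 0.0566, limma).

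Among genes listed as regulators that act on the receptors, most of them negative, 2 of 13 tested genes were higher and 1 was lower. Of all genes tested, 6.16% were higher and 6.11% lower. LRIG1, a membrane protein that promotes turnover of ERBB receptors, rose from 1.69 and 1.31 to 2.74 and 3.21 FPKM (log2 fold change of FPKM + 1 0.67, adjusted p = 0.0411, limma). PTPRJ, a receptor tyrosine phosphatase that can dephosphorylate EGFR, rose from 7.23 and 6.97 to 9.01 and 9.23 FPKM (0.32, adjusted p = 0.0422, limma). SOCS4, which takes part in EGFR degradation, fell from 7.58 and 7.43 to 5.66 and 5.50 FPKM (-0.37, adjusted p = 0.0342, limma). The groups of all 3 genes did not overlap, a pattern seen in 32.3% (higher) and 29.2% (lower) of all genes tested.

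No gene passed in limma on log2 FPKM among 8 genes of ligand shedding, 12 adaptors and first effectors, and 4 STAT genes. Of all genes tested, 6.16% were called higher and 6.11% lower in limma. At an unadjusted p under 0.05, 2 shedding genes were higher and 2 lower, 1 adaptor was higher and 2 lower, and 1 STAT gene was higher and 0 lower. By limma voom on recovered reads, the calls were 1 higher and 2 lower, 1 and 2, and 1 and 0. Over all 15521 genes tested by voom, 1839 were higher and 1700 lower. The share of all genes at an unadjusted p under 0.05 is not given here, so those counts have no background to be read against. ADAM17, the main sheddase of HBEGF and TGFA, was at 9.42 and 10.1 FPKM in NC and 8.73 and 8.91 in SKA3-KD (adjusted p = 0.264, limma). TIMP3, an inhibitor of ADAM17, was at 5.83 and 6.19 against 4.63 and 4.09 FPKM (adjusted p = 0.0514, limma). The 7 calls among the pathway genes were lost when all genes above 0 were tested or when any 1 library was left out.

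**Figure D4:**
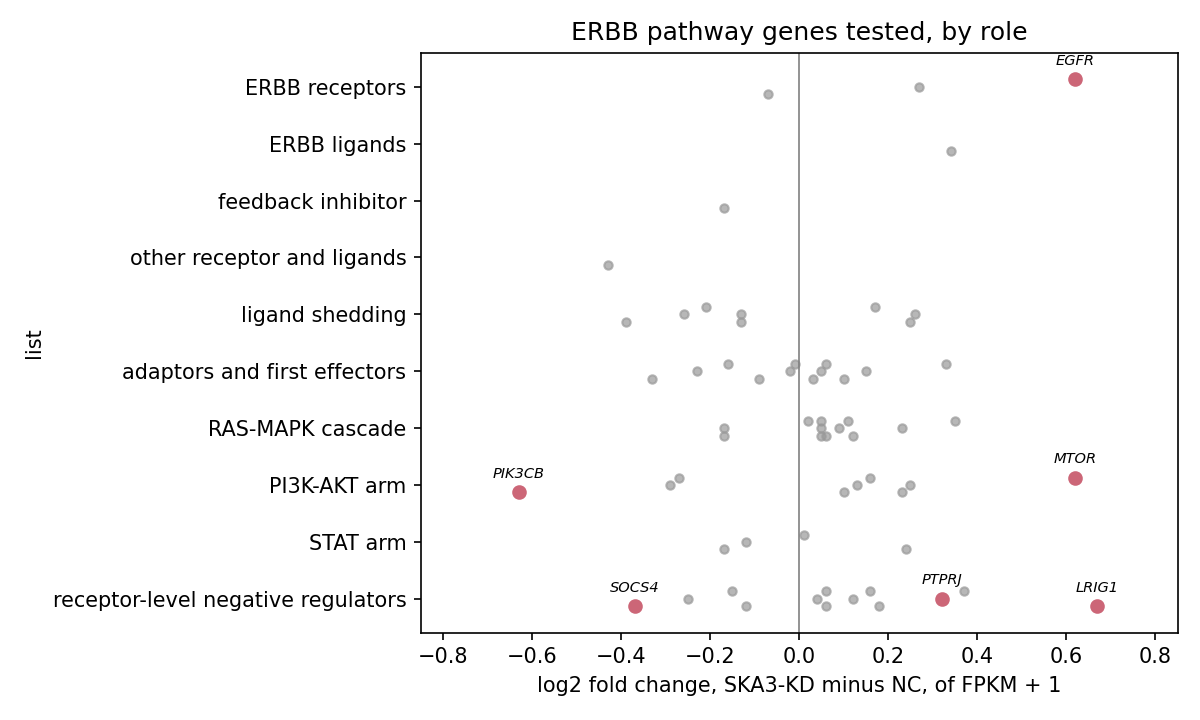
Log2 fold change of FPKM + 1, SKA3-KD minus NC, of the members and pathway genes tested and reported, with 1 row per role, genes past the threshold (adjusted p under 0.05, limma) in red with their names and all others in gray. Vertical offsets within a row only separate the points. MTOR (0.62), LRIG1 (0.67) and PTPRJ (0.32) lie to the right of 0, and PIK3CB (-0.63) and SOCS4 (-0.37) to the left.

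The genes whose pattern over the 4 libraries was closest to that of EGFR were sought among the 7302 genes whose mean reached 5 FPKM, by the Euclidean distance between log2(FPKM + 1) values centered on the NC mean. The closest were CAMSAP1-DT (distance 0.0295), UBE2S (0.0667) and MTOR (0.0719). CAMSAP1-DT, annotated as antisense in GENCODE 29, was at 12.1, 12.8, 18.3 and 21.0 FPKM in NC 1, NC 2, SKA3-KD 1 and SKA3-KD 2, with the same limit on strand. UBE2S, a ubiquitin-conjugating enzyme of the anaphase-promoting complex, was at 87.5, 93.2, 133 and 140 FPKM. With only 4 libraries, a shared pattern is mostly a shared fold change, which was 1.58 for CAMSAP1-DT, 1.51 for UBE2S and 1.59 for MTOR.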

How the data were processed

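The authors deposited 1 table of FPKM values per gene, already divided by gene length and library size, for 4 RNA-seq libraries of TU-177 cells. The submitters' processing notes name hg19, HISAT2, Bowtie2 2.2.8, StringTie 1.3.1 and Cuffdiff 2.1.1 without a role, and the annotation and use of strand are not given in the sources used here. Symbols were matched for 27199 of 28729 identifiers, and coordinates are from GENCODE 29 (GRCh38), another build. Groups came from the sample labels. SKA3-KD was compared with NC by limma 3.58.1 in R 4.3.3 (lmFit, eBayes with a mean-variance trend, two-sided) on log2(FPKM + 1) for the 12645 genes whose mean reached 1 FPKM, a scale that understates the change of low genes, with Benjamini-Hochberg adjustment over all of them and a threshold of 0.05. With 2 libraries against 2, an exact permutation test cannot go below p = 0.333, so none is reported.

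Low FPKM values are whole multiples of 1 read, which gave library sizes of 11966130 (NC 1), 9015056 (NC 2), 10177854 (SKA3-KD 1) and 11793604 (SKA3-KD 2). Reads came out whole, within 0.005, for 67.5% of the genes above 0 with the GENCODE 29 exon length, and for the others, EGFR and ERBB3 among them, the length was taken as the smallest that made all 4 values whole. Replicates differed beyond sampling noise (chi-square per degree of freedom 3.41 in NC and 3.37 in SKA3-KD). Intervals on reads are exact binomial and, like the floor of 3 reads for a count of 0, cover counting error only.

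The members and the pathway and marker lists were chosen with earlier results of these data known. Every member was named, as were SKA3, ERBB4, EGF, NRG1, each pathway gene past the threshold (counts include pathway genes whose values are not reported here) and the 3 genes most like EGFR. The other genes given with values (NRG4, PIK3R1, PIK3R2, PIK3R3, NRAS, HRAS, ADAM17, TIMP3, EGFR-AS1 and the markers) were chosen from the lists or the locus after their values were seen. Each choice was varied in turn, with 0.1 as the pseudocount, a filter at a mean of 5 FPKM or none, quantile normalization or median-of-ratios scaling, no variance trend, a replicate block, the omission of each library, and limma voom on the recovered reads with a mean of at least 5 reads. The fit was tested on simulated data. Other steps used Python 3.11.15 (pandas 2.3.3, scipy 1.17.1, numpy 2.4.6, matplotlib 3.10.9).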

Additional observations from a re-analysis of the deposited data

How the results depend on the processing

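EGFR kept its direction under all 8 alternatives that used the 4 libraries (log2 fold change 0.61 to 0.63, adjusted p 2.74e-08 to 0.0613, limma) and when 1 library was left out (0.54 to 0.69, adjusted p 0.0566 to 0.0813). The number of members called higher, 1 in the test as reported, was 0 without a filter on low values, 2 by limma voom on recovered reads, where ERBB2 was added, and 0 to 0 with 1 library left out. For the other pathway genes, the 4 higher and 3 lower calls became 0 and 0 without a filter, 7 and 7 with a mean FPKM of at least 5, 11 and 11 by limma voom, and 0 to 0 and 0 to 0 with 1 library left out, and the higher calls became 2 without a variance trend. No member was called lower under any of these. Without a filter 26504 genes were tested in place of 12645, and the fits with a library left out rest on fewer samples. The cause of these shifts was not tested. In the leave-one-out fits, the lone library of a group is assumed to vary like the other group, and over all genes these fits called 0 to 46 genes higher and 0 to 135 lower, against 779 and 772 in the test as reported. The other counts over all genes, higher and lower, were 48 and 81 without a filter, 312 and 381 without a variance trend, and 1839 and 1700 of 15521 by voom. The direction of ERBB3 reversed without SKA3-KD 2 (0.09, range with 1 library left out -0.23 to 0.09) and that of ERRFI1 without SKA3-KD 1 (0.06, range -0.40 to 0.06). With the replicate number as a block, 1 member was called higher, EGFR had an adjusted p of 0.0188 (limma), and 1002 genes were higher and 965 lower. Same-numbered libraries deviated together only weakly (correlation 0.0973 across genes, 2 pairs), so the numbers were not taken to pair the samples. A mean FPKM of at least 5 leaves ERBB3 and HBEGF untested. With at most 18 reads per library for TGFA and at most 5 for AREG, EREG, BTC and EPGN, depth limits what can be said of these ligands.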
